A study of Homo sapiens with 51 samples.

Results

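The 8 genes described here are TP63, a transcription factor of basal epithelium, and 7 genes of the hemidesmosome and of its ligand laminin-332: COL17A1, ITGA6, ITGB4, LAMA3, LAMB3, DST and PLEC. They are a list of names and no threshold on their values was used, and all 8 were found among the 24033 genes of the expression table. Expression was measured by RNA sequencing in HMLE cells, an immortalised line of human mammary epithelial cells, and in HMLE-TWIST1 cells, the same line overexpressing TWIST1, a transcription factor that drives the passage from epithelial to mesenchymal state. The 51 libraries form 17 groups of 3. Both lines were given the solvent DMSO for 48 h (day 2), or DMSO for 15 h with 48 h of recovery (day 4). Both were also transfected with a scramble duplex RNA or with duplexes against SUV39H1 and SUV39H2, and taken after 48 h (day 2) or after a further 48 h of recovery (day 4). HMLE-TWIST1 cells alone received chaetocin, a fungal metabolite used as an inhibitor of SUV39H1 and SUV39H2, the enzymes that trimethylate lysine 9 of histone H3, at 100, 150, 200 or 500 nM for 48 h, or at 80 nM for 15 h with 48 h of washout. The labels do not describe the 3 libraries of a group as separate cultures, so p-values measure the spread between libraries, which may be technical.

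Hemidesmosomes fasten basal epithelial cells to the basement membrane. Integrin α6β4 (ITGA6 and ITGB4) and the transmembrane collagen XVII (COL17A1) span the cell membrane, plectin (PLEC) and the epithelial form of dystonin (DST) tie them to keratin filaments inside, and laminin-332 (with the α3 chain from LAMA3 and the β3 chain from LAMB3) is the ligand outside. p63, mainly as its ΔN isoforms, maintains basal cells of stratified and glandular epithelia, including the mammary gland, and genes of cell adhesion are among its known targets. Values are per gene, so that TA and ΔN forms of TP63, long and short forms of LAMA3, and the epithelial, neuronal and muscle forms of DST and PLEC are summed.

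The promoter windows shown are those of COL17A1, LAMA3 and LAMB3, members called higher with chaetocin at every dose. Only windows that hold a motif marked here are printed, so a match in each was fixed by that choice. The LAMB3 start was taken from 3 for its match. TP63 was called higher at every dose too, and the window examined for it, which holds neither motif marked here, is not shown. Each is the 250 bases before a RefSeq transcript start, in build GRCh38.p14, while expression was counted on hg19. Of the 8 genes, 6 had a window in the table: TP63, COL17A1, ITGA6, LAMA3, LAMB3 and DST. Capitals mark a single unit of the p53 family motif in COL17A1 and TGANTCA, the AP-1 motif, in LAMA3 and LAMB3. A full p53 family site, in which this unit is repeated, was not searched for. The windows lie at chr10:104085881-104086130 (minus strand), chr18:23872770-23873019 (plus strand) and chr1:209651375-209651624 (minus strand, 1 of 3 listed starts of LAMB3).
COL17A1: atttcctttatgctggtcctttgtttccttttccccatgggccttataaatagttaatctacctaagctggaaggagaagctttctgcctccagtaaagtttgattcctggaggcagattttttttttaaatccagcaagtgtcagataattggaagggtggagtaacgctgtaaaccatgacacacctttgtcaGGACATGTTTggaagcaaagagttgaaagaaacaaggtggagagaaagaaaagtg
LAMA3: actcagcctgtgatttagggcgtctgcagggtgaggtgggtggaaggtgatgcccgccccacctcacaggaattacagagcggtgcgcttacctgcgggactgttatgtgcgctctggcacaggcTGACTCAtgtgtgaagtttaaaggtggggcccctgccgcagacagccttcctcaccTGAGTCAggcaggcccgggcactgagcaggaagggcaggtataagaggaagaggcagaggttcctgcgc
LAMB3: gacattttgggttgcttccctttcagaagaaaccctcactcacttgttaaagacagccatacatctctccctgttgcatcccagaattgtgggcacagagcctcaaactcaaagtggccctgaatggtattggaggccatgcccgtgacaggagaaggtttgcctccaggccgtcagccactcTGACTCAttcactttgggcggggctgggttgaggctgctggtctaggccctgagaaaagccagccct
The p53 family unit of COL17A1 begins 55 bases before its start, and 5.6% of 35116 windows of this length hold such a unit on either strand. TGANTCA lies 125 and 69 bases before the LAMA3 start and 67 bases before this LAMB3 start, and 6.6% of windows hold it. The windows of the other 2 LAMB3 starts do not hold it. CACCTG, a 6-base E-box that overlaps the wider pattern CANNTG, was found in the LAMA3 window 73 bases before the start, as in 17.5% of windows, and CANNTG itself is in 61.8%. The TP63 window examined, at chr3:189631139-189631388 (plus strand), holds CANNTG at 3 places and no p53 family unit. No other TP63 start was searched. Whether the ΔN forms start at this window was not examined, so the result does not extend to their promoter. These matches describe letters in a window and say nothing of binding.

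The libraries held 7897060 to 15662385 reads in listed genes. TWIST1 stood at 2.5 RPKM (reads scaled to transcript length and library size) in HMLE and 270 in HMLE-TWIST1 cells with DMSO at day 2. SUV39H1 and SUV39H2 fell in all 4 knockdown comparisons, by 0.88 to 1.40 and 0.42 to 1.20 on the log2 scale. Of the 8 epithelial markers, all were read in HMLE, with a summed level of 10300 to 25500 CPM (reads scaled to library size) against 39.8 to 231 CPM in HMLE-TWIST1, where 1 marker was at 0 in some groups. The 6 mesenchymal markers summed to 898 to 3400 CPM in HMLE and 6030 to 34800 CPM in HMLE-TWIST1 libraries. The 6 mammary luminal markers in the table (of 7) summed to 259 to 559 CPM in HMLE and 71.6 to 278 CPM in HMLE-TWIST1, and the 3 adipocyte markers in it (of 4) to 9 to 447 CPM and 0.198 to 2.3 CPM. Leukocyte markers (3 of 5 in the table) reached at most 18.8 CPM and endothelial markers (4 of 5) at most 15.7 CPM. In bulk RNA, fewer cells of a type and less RNA per cell cannot be told apart.

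All 8 genes were well expressed in HMLE cells. Per length, COL17A1 stood highest with DMSO at day 2, at 110 ± 15.3 RPKM (SD, n = 3), followed by ITGA6 at 88.4 ± 8.13, LAMB3 at 82.1 ± 6.26, LAMA3 at 63.04 ± 5.36, TP63 at 51.5 ± 2.05, DST at 45.1 ± 5.21, PLEC at 39.1 ± 2.80 and ITGB4 at 36.7 ± 3.61. The libraries of COL17A1 and ITGA6 overlapped in that order, as did those of ITGA6 and LAMB3, of DST and PLEC, and of PLEC and ITGB4. In HMLE-TWIST1 cells with DMSO the order was another one: PLEC at 53.2 ± 3.96 and DST at 38.6 ± 0.34 RPKM led, ITGA6 followed at 3.52 ± 0.17 and LAMA3 at 1.93 ± 0.362, ITGB4 at 0.619 ± 0.301 overlapped LAMB3 at 0.510 ± 0.152, and COL17A1 at 0.0563 ± 0.0197 overlapped TP63 at 0.0212 ± 0.0287. The plot of levels in every library shows the same break in all 17 groups, since PLEC and DST stay within the same range in both lines and the other genes do not.

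**Figure D1:**
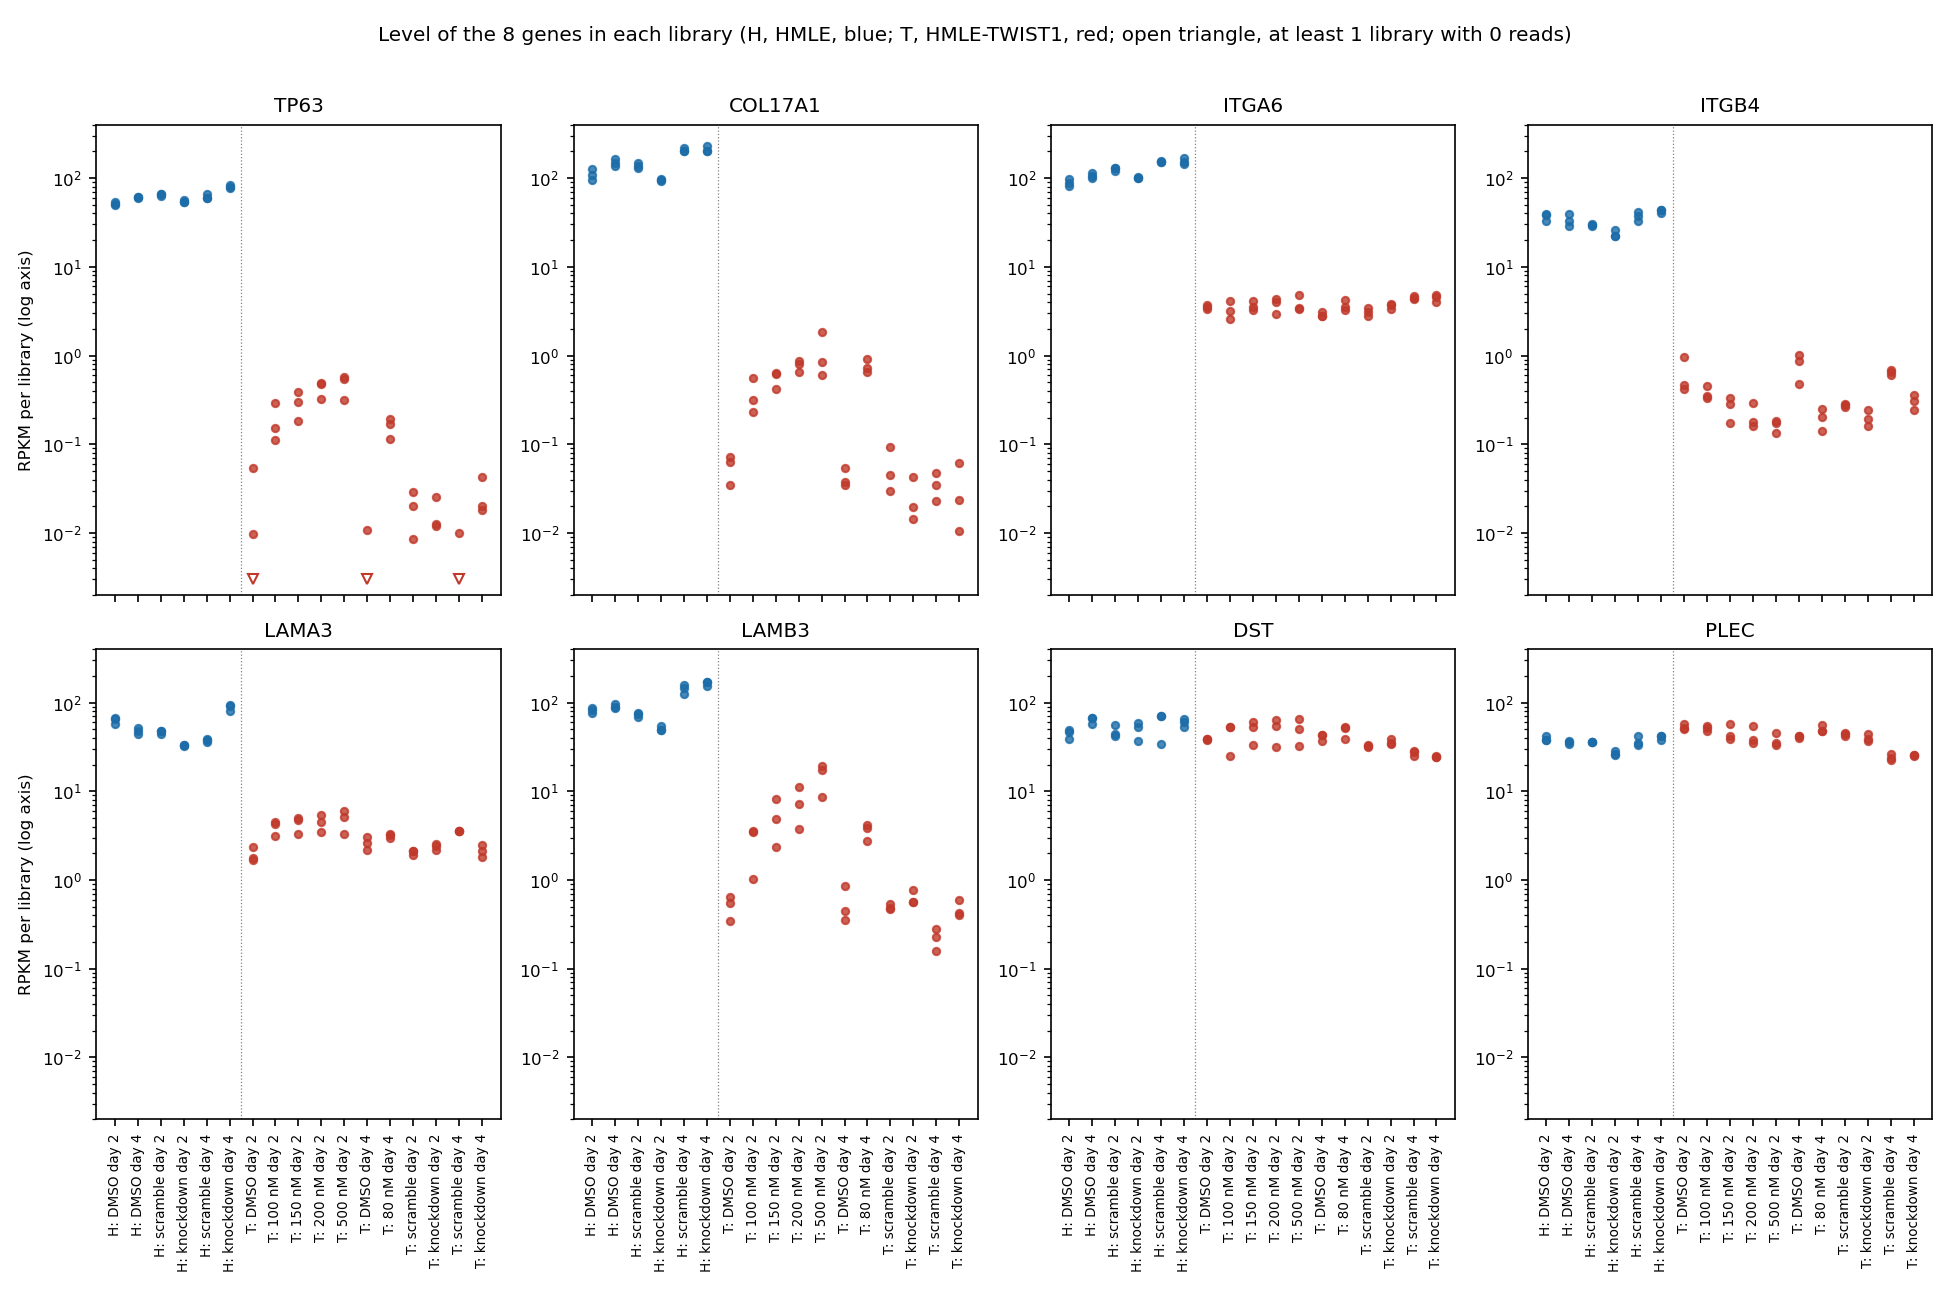
Level of each of the 8 genes in each of the 51 libraries, in RPKM on a log axis, with 1 panel per gene, 1 column per group (blue, HMLE; red, HMLE-TWIST1) and open triangles where a library had 0 reads. In every HMLE-TWIST1 group TP63 and COL17A1 lie far below the HMLE groups, while DST and PLEC lie between 22.7 and 71.5 RPKM in both lines.

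The comparison of the lines asks which of these genes differ between TWIST1-overexpressing cells and the parent line under 4 matched control conditions. TP63 and COL17A1 were near 0 in HMLE-TWIST1 cells. For TP63 the 3 HMLE libraries with DMSO at day 2 stood at 53.8, 49.9 and 50.8 RPKM, and the HMLE-TWIST1 libraries at 0.0539, 0.00985 and 0. The latter held 5 TP63 reads in all against 15571, a depth-scaled read ratio of 2800-fold (95% exact interval 1200 to 8640, counting error only, since reads without molecular identifiers are not independent molecules). At such counts the fitted log2 difference depends on the prior count and is no bound. With 1 read against 12898 in DMSO at day 4, 6 against 16805 in scramble at day 2 and 1 against 14223 in scramble at day 4, the ratios were 14900 (2670 to 588000), 3450 (1580 to 9390) and 18500 (3330 to 732000).

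COL17A1, the transmembrane collagen, stood at 126.5, 109 and 95.9 RPKM in HMLE and at 0.0625, 0.0343 and 0.0721 in HMLE-TWIST1 libraries with DMSO at day 2. Its 13, 9, 15 and 9 reads in the 4 HMLE-TWIST1 control groups stood against 28898, 27415, 31163 and 41558, or ratios of 2000 (1170 to 3760), 3520 (1850 to 7690), 2560 (1550 to 4570) and 6020 (3170 to 13200). The integrin chains fell less. In the 4 comparisons the log2 differences of ITGA6 were -4.65 (SE 0.177), -5.21, -5.34 and -5.11, and those of ITGB4 -5.94 (SE 0.292), -5.47, -6.64 and -5.80. Of the laminin chains LAMA3 fell less, with -5.04, -4.23, -4.50 and -3.40. LAMB3 stood at -7.28, -7.37, -7.11 and -9.15. Groups of these genes did not overlap in any of the 4 comparisons, and every adjusted p (limma, Benjamini-Hochberg over all genes) was at most 2.35e-08.

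DST and PLEC, the plakins inside the cell, differed little. DST stood at 49.6, 46.2 and 39.4 RPKM in HMLE and 38.3, 38.7 and 38.9 in HMLE-TWIST1 libraries with DMSO at day 2, a log2 difference of -0.23 (SE 0.33) that did not pass (limma, adjusted p = 0.612). It fell in the other 3 comparisons, with differences of -0.67, -0.55 and -1.06, and the call in scramble at day 2 (adjusted p = 0.0181) was lost without HMLE scramble day 2 replicate 1 (log2 -0.41, limma adjusted p = 0.0689). PLEC was higher by 0.43, 0.20 and 0.29 in the first 3 comparisons and fell by 0.61 in scramble at day 4. With DMSO at day 2 its call (limma adjusted p = 0.041) was lost when HMLE replicate 1 or 3 or any of the 3 HMLE-TWIST1 libraries was left out (0.0628 to 0.143), and under median ratios as the scaling, the deposited log2 values and plain moderation. With DMSO at day 4 (0.0191) it was lost without HMLE replicate 2 (0.0775) or HMLE-TWIST1 replicate 1 (0.0623) or 2 (0.0515).

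A gene is called higher or lower where the adjusted p is below 0.05. By this rule 1 of the 8 was higher and 6 lower with DMSO at day 2, 1 and 7 with DMSO at day 4, 1 and 7 with scramble at day 2, and 0 and 8 with scramble at day 4. Over all genes tested, 24.2% were called higher and 23.1% lower with DMSO at day 2, 34.1% and 32.9% with DMSO at day 4, 33.7% and 34.9% with scramble at day 2, and 37.1% and 37.2% with scramble at day 4. The median log2 difference of the 8 with DMSO at day 2 was -5.49, against 0.01 for all genes. Scaling by library totals in place of the trimmed mean moved the median of all genes by -0.169 to 0.374 over the 22 comparisons of the study, so changes are given relative to the median gene. Under that scaling the all-gene shares were 43.7% and 25.7% with DMSO at day 4 and 50.7% and 26.8% with scramble at day 4.

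**Figure D2:**
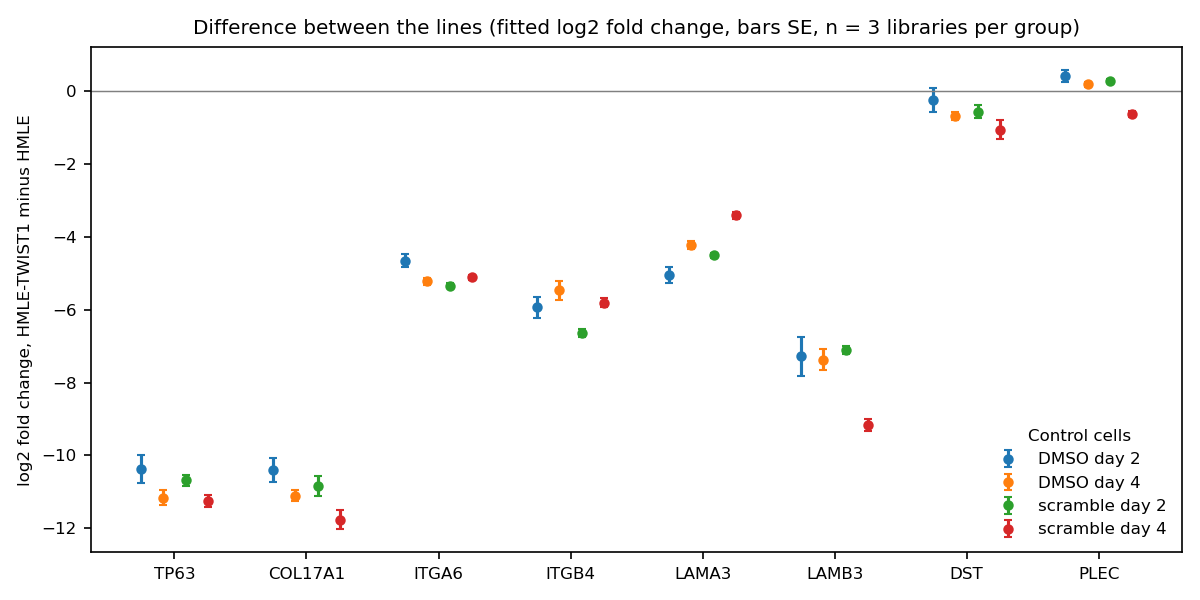
Log2 difference of HMLE-TWIST1 minus HMLE for each gene under the 4 control conditions, with error bars of 1 SE. TP63 and COL17A1 lie beyond -10 under each condition, the laminin and integrin genes between -3 and -10, and DST and PLEC nearer 0 than these.

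Genes around the 8 moved with the line in both directions. The counts here and in the next paragraph stand beside 24.2% of all genes called higher and 23.1% lower with DMSO at day 2. The lists overlap (KRT5 and FERMT1, for instance, stand in more than 1), and the median over all genes tested was between -0.02 and 0.03 in every comparison with which a list is set here. All 19 textbook p63 targets tested were lower in HMLE-TWIST1 cells with DMSO at day 2 (median log2 -6.2), among them KRT5 (-10.70), the keratin of basal cells, PKP1 (-6.20), a desmosomal plaque protein, and PERP (-4.71), a desmosomal membrane protein. Of 14 genes of the p53 family and regulators of p63, 12 were lower and none higher (median -1.33), led by GRHL2 (-9.38), a transcription factor of epithelial identity, and HES1 (-5.52), a Notch target. Of 5 further plakins and spectraplakins, 4 were lower (median -4.97), including EVPL (-7.08), EPPK1 (-6.32) and DSP (-4.97), which encode envoplakin, epiplakin and desmoplakin.

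Other laminin chains went mostly the opposite way. Of 10 tested, 7 were higher and 2 lower (median 1.8), with LAMA4 at 7.92 and LAMA2 at 4.66, the α4 and α2 chains of mesenchymal laminins, and LAMA5 at -3.21. Of 15 basement membrane and anchoring genes, 8 were higher and 6 lower (median 2.08), with NID1 (nidogen, 7.89) and COL4A1 (collagen IV, 4.63) higher and FREM2 (-5.35) lower. Of 12 laminin receptors and hemidesmosome partners, 3 were higher and 7 lower (median -0.84), with ITGA7 (5.11), the laminin-binding integrin α7, higher and KRT14 (-11.00) and FERMT1 (-4.10) lower. The 3 higher are a share near the 24.2% of all genes called higher.

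The chaetocin series asks whether the inhibitor changed these genes in HMLE-TWIST1 cells at 48 h. TP63, COL17A1, LAMA3 and LAMB3 rose at every dose, ITGB4 fell from 150 nM on, and no change of ITGA6 or DST passed the test. The dose libraries come from a table part other than that of DMSO, so that part and treatment cannot be told apart in these 4 comparisons. TP63 stood at 0.152, 0.288 and 0.110 RPKM in the 100 nM libraries, 0.301, 0.3895 and 0.185 in those with 150 nM, 0.321, 0.491 and 0.479 with 200 nM, and 0.318, 0.578 and 0.548 with 500 nM. Every one of these 12 libraries lay above the 3 DMSO libraries. The 5 reads with DMSO stood against 44, 72, 98 and 113, ratios of 9.99 (3.97 to 32.3), 16.1 (6.59 to 51.1), 23.1 (9.55 to 72.6) and 26 (10.8 to 81.7), with limma adjusted p-values of 0.000649, 4.19e-05, 6.53e-06 and 2.02e-06. At 500 nM the mean remained at 0.935% of the HMLE level with DMSO at day 2.

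COL17A1 rose from 13 reads to 76, 117, 152 and 224, and stood at 0.6095, 0.838 and 1.86 RPKM at 500 nM (ratio 19.9, 11.4 to 37.9, limma adjusted p = 6.58e-07). Its 3 libraries at each dose lay above those with DMSO, and its mean at 500 nM was 1.00% of the HMLE level. LAMB3, the laminin β3 chain, had the highest read ratio of the 8 at 500 nM (30.3, 24.4 to 38), while at 100, 150 and 200 nM its ratios of 5.22, 10.5 and 15.1 were below those of TP63. At every dose the LAMB3 interval lay inside that of TP63, which rests on 5 DMSO reads, so the order of these 2 genes is not settled. From 0.642, 0.344 and 0.544 RPKM with DMSO LAMB3 stood at 3.60, 3.495 and 1.03 with 100 nM, 4.86, 8.13 and 2.37 with 150 nM, 7.20, 11.2 and 3.71 with 200 nM, and 8.61, 17.5 and 19.3 with 500 nM. Replicate 3 was the lowest at 100, 150 and 200 nM and the highest at 500 nM, and no dose library overlapped DMSO. The fitted log2 changes of LAMB3 were 2.17, 3.10, 3.65 and 4.73 (SE 0.535, limma adjusted p = 0.00998, 0.000596, 0.000125 and 7.55e-06). The call at 100 nM was lost with voom weights (0.0689). At 500 nM its level was 18.4% of that in HMLE.

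LAMA3, the laminin α3 chain, rose less. It stood at 2.35, 1.67 and 1.78 RPKM with DMSO and at 3.33, 5.08 and 6.04 at 500 nM, with log2 changes of 1.03, 1.15, 1.18 and 1.26 (SE 0.22) from the lowest to the highest dose and no overlap at any dose. All 4 of these changes passed (limma adjusted p at most 0.00325). The ratio of LAMB3 to LAMA3 RPKM, which was 1.30 ± 0.0497 (SD, n = 3) in HMLE and 0.262 ± 0.0506 in HMLE-TWIST1 cells with DMSO, stood at 0.719 ± 0.452, 1.20 ± 0.611, 1.67 ± 0.74 and 3.07 ± 0.445 at 100, 150, 200 and 500 nM. These ratios are descriptions and were not tested.

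**Figure D3:**
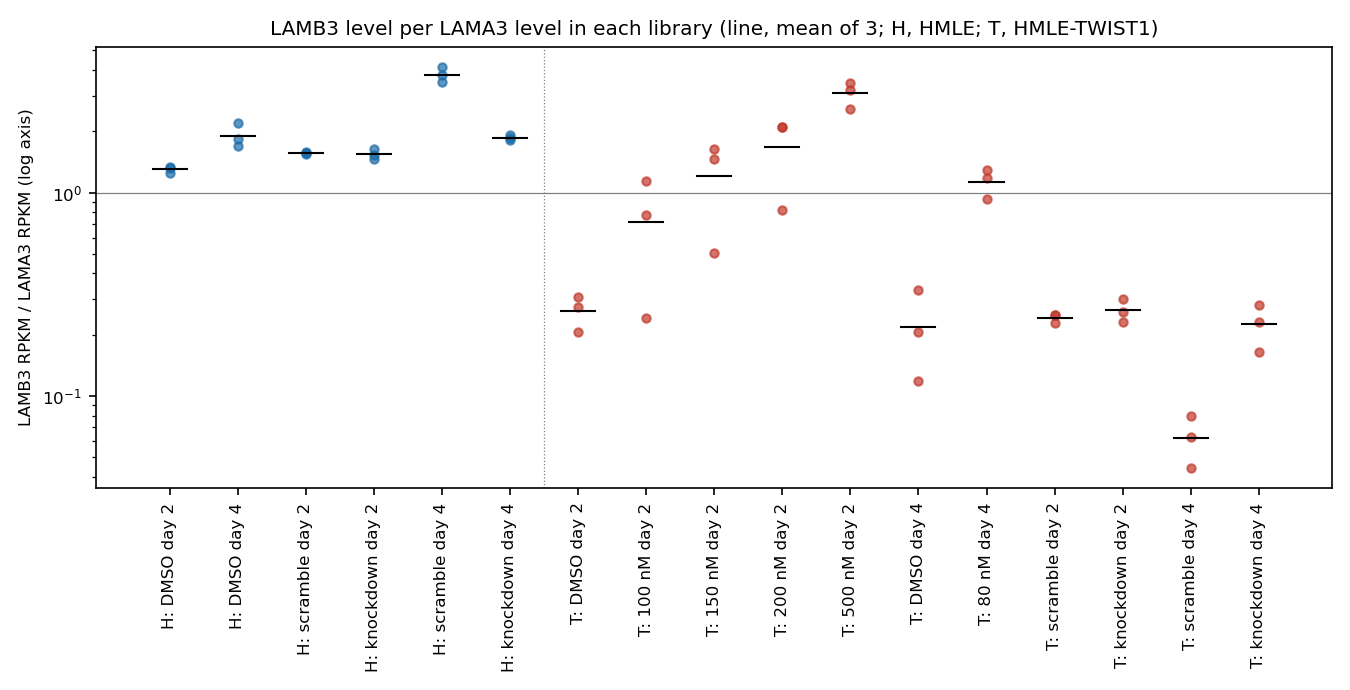
RPKM of LAMB3 divided by RPKM of LAMA3 in each of the 51 libraries, on a log axis, with a line at the mean of each group of 3. The ratio is above 1 in every HMLE library and below 1 in the HMLE-TWIST1 control and knockdown libraries, and reaches 3.07 on average at 500 nM chaetocin.

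ITGB4, the integrin β4 chain, went down while those genes went up. It stood at 0.965, 0.423 and 0.468 RPKM with DMSO, 0.352, 0.331 and 0.4495 with 100 nM, 0.1725, 0.286 and 0.334 with 150 nM, 0.177, 0.161 and 0.288 with 200 nM, and 0.135, 0.174 and 0.183 with 500 nM. Groups overlapped at 100 nM only, where the log2 change of -0.59 (SE 0.292) did not pass (limma adjusted p = 0.151). ITGB4 fell at the 3 higher doses, with log2 changes of -1.11, -1.41 and -1.70, and the call at 150 nM (adjusted p = 0.00773) was lost without HMLE-TWIST1 DMSO day 2 replicate 1 (log2 -0.76, limma adjusted p = 0.053). Its partner ITGA6 stood at 3.49, 3.36 and 3.70 RPKM with DMSO and 3.44, 3.33 and 4.765 at 500 nM, a log2 difference of 0.09 (SE 0.177, limma adjusted p = 0.699).

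DST had log2 differences of 0.09 to 0.30 (SE 0.33) that did not pass at any dose. Its replicate 1 was the lowest at each dose, at 24.8, 33.0, 31.6 and 32.0 RPKM, while the other dose libraries stood between 50.1 and 64.6 and those with DMSO between 38.3 and 38.9. PLEC differed by -0.06, -0.24 and -0.35 without passing and fell by 0.53 at 500 nM (limma adjusted p = 0.0135). That call was lost without HMLE-TWIST1 DMSO day 2 replicate 2 (0.0544), without 500 nM replicate 1 (0.058) or 2 (0.0521), and with scaling by library totals (0.0948). Without 200 nM replicate 3, PLEC was also called lower at 200 nM (limma adjusted p = 0.00808).

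In counts, 4 of the 8 were higher at each dose (TP63, COL17A1, LAMA3 and LAMB3), and 0, 1, 1 and 2 were lower from the lowest to the highest dose. Over all genes the shares called higher and lower were 12.3% and 11.1% for 100 nM, 18.2% and 16.0% for 150 nM, 21.4% and 18.3% for 200 nM, and 26.2% and 24.3% for 500 nM. Scaling by library totals gave 17.6% and 6.7%, 26.7% and 9.37%, 30% and 11.2%, and 35.4% and 16.1%. The summed epithelial markers stayed at 39.8 to 186 CPM at the 4 doses against 132 to 166 CPM with DMSO, and the mesenchymal sum was 6030 to 17700 against 28100 to 33500 CPM. Of the leukocyte markers (1.91 to 2.42 CPM with DMSO, 6.10 to 18.8 at 500 nM) 2 of 3 tested were higher at 500 nM, as were 2 of 3 endothelial ones (1.24 to 3.71 and 9.98 to 15.7 CPM). TWIST1 itself stood at 270 ± 38.8 RPKM (SD, n = 3) with DMSO and at 221 ± 66.3, 169 ± 51.2, 152 ± 45.1 and 115 ± 7.88 from 100 to 500 nM, a fall that passed from 150 nM on (by 1.25 at 500 nM, limma adjusted p = 0.000293). The part of the markers and of TWIST1 in the result was not tested.

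The 500 and 100 nM libraries lie in the same part of the table and allow a comparison of doses. From 100 to 500 nM LAMB3 rose by 2.56 (SE 0.535), COL17A1 by 1.42 and TP63 by 1.31, and ITGB4 fell by 1.10, with limma adjusted p-values of 0.00746, 0.0115, 0.0302 and 0.0174. Differences of LAMA3 (0.23), ITGA6 (0.21) and DST (0.17) did not pass, and PLEC (-0.46, limma adjusted p = 0.061) passed with replicate number as a block (0.0204). Of the 8, 3 were higher and 1 lower, over a background of 8.88% and 8.37% (10.1% and 5.83% with library totals). TP63 lost its call without 100 nM replicate 1 (limma adjusted p = 0.0691) or 3 (0.144) or 500 nM replicate 2 (0.125) or 3 (0.0935), COL17A1 without 100 nM replicate 3 (0.0711) or 500 nM replicate 3 (0.0509), and ITGB4 without 100 nM replicate 3 (0.0867) or 500 nM replicate 2 (0.0576). With a prior count of 0.5 the TP63 call was lost (0.118), and with voom weights that of ITGB4 (0.0568). LAMB3 kept its call when any 1 of the 6 libraries was left out.

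**Figure D4:**
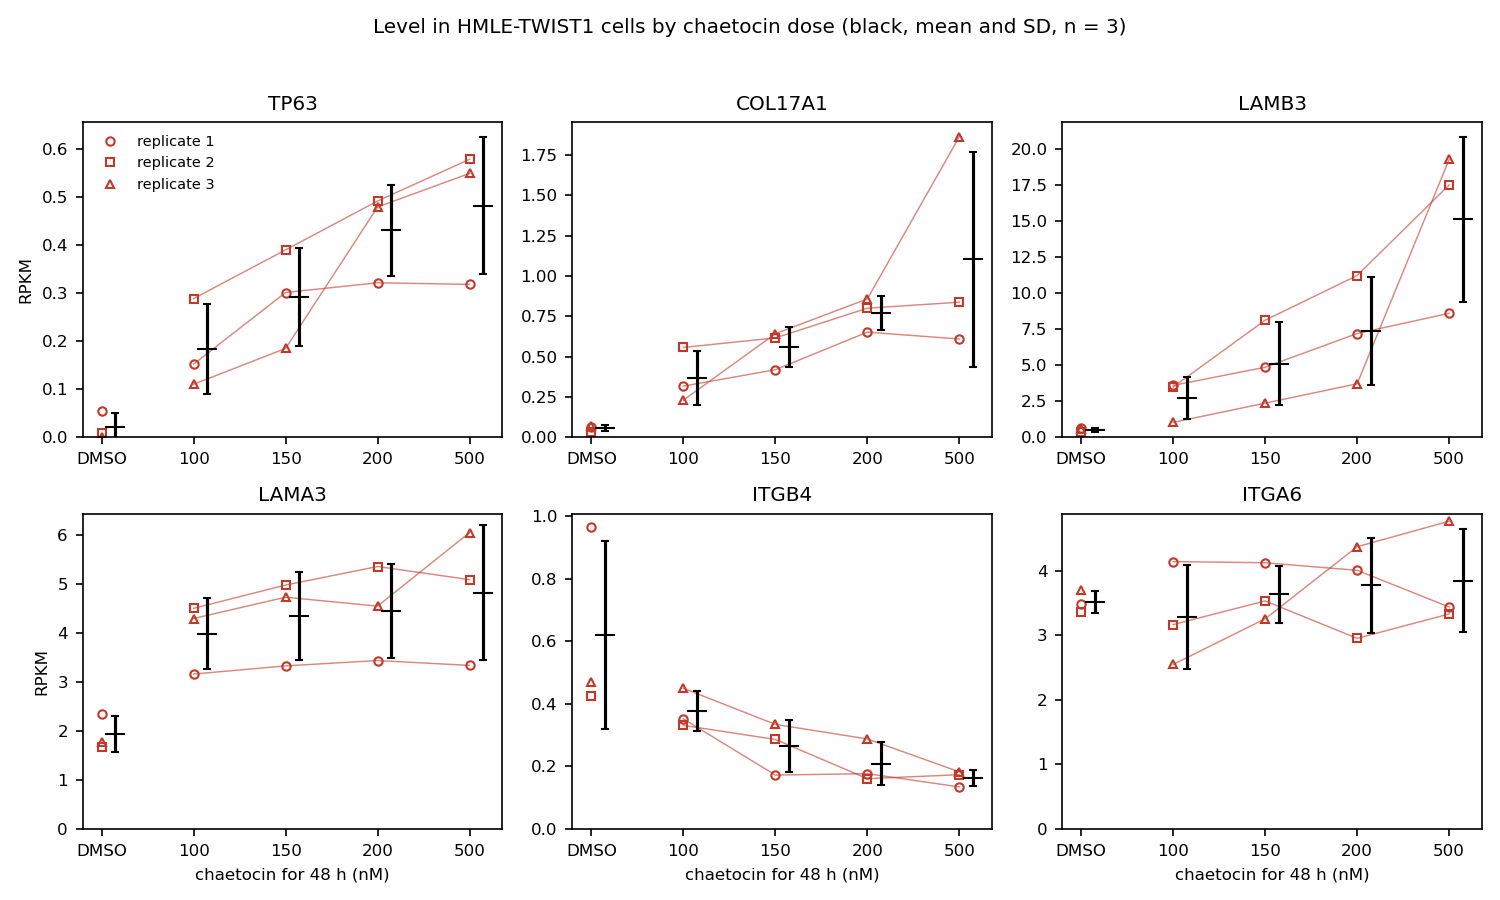
Level in RPKM (linear axis from 0) of 6 of the genes in HMLE-TWIST1 libraries with DMSO and 4 doses of chaetocin for 48 h, evenly spaced along the axis. Symbols are libraries, red lines join dose libraries of the same replicate number, and black bars give mean and SD (n = 3), clipped at 0. LAMB3 goes from 0.510 RPKM on average with DMSO to 15.1 at 500 nM, and ITGB4 goes down.

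Textbook targets of p63 went in both directions at 500 nM. Of 19 tested, 4 were higher and 3 lower (median log2 -0.04), shares near the 26.2% and 24.3% of all genes. KRT5 fell by 2.35, from 79 reads to 9, and FGFR2, a receptor of fibroblast growth factors, fell by 1.24, while RIPK4, a kinase of keratinocyte differentiation, rose by 1.06 and SFN, which encodes stratifin, by 0.88. Of the p53 family and p63 regulators 3 of 14 were higher and 2 lower, no more than those shares, with HES1 (3.11), KLF4 (1.13) and TFAP2C (0.84) higher. Of the plakins EPPK1 rose by 1.72 and PPL (periplakin) fell by 2.66.

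Other laminin chains split evenly at 500 nM, where 26.2% of all genes were higher and 24.3% lower, and most basement membrane genes were lower. Of the 10 laminin chains outside the 8, 4 were higher and 4 lower (median -0.27), with LAMB4 (3.33) higher and LAMB2 (-1.82) and LAMC1 (-1.43), the β2 and γ1 chains, lower. Of 15 basement membrane genes, 2 were higher and 9 lower (median -1.18), including COL4A1 (-2.04), COL4A2 (-1.89), COL4A5 (-2.48) and HSPG2 (perlecan, -1.79). Of 12 receptors and partners, 1 was higher, ITGA2 (integrin α2, 2.24), and 7 were lower (median -0.6), with DAG1 (dystroglycan) at -1.37 and CD151, a tetraspanin that binds laminin-binding integrins, at -0.73.

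After 15 h at 80 nM and 48 h of washout, TP63, COL17A1 and LAMB3 were again higher and ITGB4 lower. This comparison lies within 1 part of the table. TP63 stood at 0.0107, 0 and 0 RPKM with DMSO at day 4 and at 0.114, 0.171 and 0.194 after washout, 1 read against 48 (ratio 38.9, 6.65 to 1570, limma adjusted p = 3.87e-07). COL17A1 stood at 0.0373, 0.0534 and 0.0346 against 0.725, 0.644 and 0.9145 RPKM, 9 reads against 196 (17.6, 9.1 to 39.2, limma adjusted p = 3.11e-09). LAMB3 stood at 0.358, 0.860 and 0.451 against 2.74, 3.83 and 4.17 RPKM (log2 change 2.68, SE 0.282, limma adjusted p = 0.000137). In each of these 3 genes all treated libraries lay above all DMSO libraries. ITGB4 stood at 1.00, 0.482 and 0.872 RPKM with DMSO and at 0.2505, 0.141 and 0.201 after washout, and fell by 1.83 (SE 0.259, limma adjusted p = 0.000283).

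The remaining genes moved by less than 0.4 log2 units after washout. PLEC rose by 0.27 (limma adjusted p = 0.00626). ITGA6 rose by 0.34 (0.0113), a call lost without 80 nM replicate 3 (limma adjusted p = 0.0735). LAMA3 was called higher at 0.29 (0.0449), but its groups overlapped, at 3.035, 2.60 and 2.19 against 2.96, 3.26 and 3.24 RPKM, and leaving out DMSO replicate 2 (0.0909), DMSO replicate 3 (0.191), 80 nM replicate 2 (0.122) or 80 nM replicate 3 (0.128) ended the call. DST (0.22, limma adjusted p = 0.144) passed without 80 nM replicate 1 (0.36, 0.00533). The ratio of LAMB3 to LAMA3 was 0.218 ± 0.107 with DMSO and 1.13 ± 0.185 after washout. In counts 6 of the 8 were higher and 1 lower, over a background of 18.5% and 18.1% (24.7% and 13.2% with library totals). The epithelial markers summed to 92.2 to 142 CPM after washout against 101 to 141 CPM, the mesenchymal ones to 13400 to 20000 against 26800 to 34000 CPM, the luminal ones to 212 to 214 against 120 to 156 CPM and the leukocyte ones to 6.21 to 9.22 against 1.89 to 2.67 CPM. The part of these markers was not tested. TWIST1 did not pass here, at 267 ± 30.1 RPKM after washout and 213 ± 30.1 with DMSO (SD, n = 3; log2 0.33, limma adjusted p = 0.148).

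Around them, 6 of 19 p63 targets were higher after washout and 1 lower (median 0.26), beside 18.5% and 18.1% of all genes, with CLCA2 (0.83), PVRL1 (0.66) and FERMT1 (0.56) higher and FGFR2 (-0.82) lower. Of 14 genes of the p53 family and regulators, 4 were higher and 2 lower, including HES1 (1.39), KLF4 (0.64) and MDM2 (0.54). Laminin chains outside the 8 were mostly lower, 5 of 9 against 1 higher (median -0.67), with LAMB1 at -1.30, LAMB2 at -1.17 and LAMA5 at -0.98. Of the basement membrane genes 11 of 15 were lower and 1 higher (median -0.9), with NID2 at -2.20, COL4A5 at -1.41 and COL4A1 at -0.90.

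Knockdown of SUV39H1 and SUV39H2 asks whether loss of the enzymes' RNA changed the same genes. In HMLE cells at day 2 LAMA3, LAMB3, ITGA6, ITGB4 and PLEC fell. LAMA3 stood at 44.52, 47.95 and 47.35 RPKM with scramble and 32.21, 33.56 and 33.45 after knockdown and fell by 0.49 (SE 0.064, limma adjusted p = 1.62e-05). LAMB3 fell by 0.51, PLEC by 0.40, ITGA6 by 0.33 and ITGB4 by 0.34, and in none of them did groups overlap. The ITGB4 call (limma adjusted p = 0.0344) was lost with any library but knockdown replicate 3 left out (up to 0.135), and with all 51 libraries in 1 fit those of ITGB4 (0.358), LAMB3 (0.41) and ITGA6 (0.0665) were lost. TP63 (-0.24, limma adjusted p = 0.306) and COL17A1 (-0.54, 0.17) did not pass, but passed with voom weights (0.000574 and 5.97e-07). The reported fit takes 1 spread per gene over both lines, so the few reads of TP63 and COL17A1 in HMLE-TWIST1 enter their tests in HMLE. The part of this was not tested. None of the 8 were higher and 5 were lower, over a background of 12.6% and 16.3% (16.5% and 11.6% with library totals). Of 19 p63 targets 12 were lower and none higher (median -0.58), and all 5 further plakins were lower (median -0.85). The epithelial markers summed to 23100 to 24600 CPM with scramble and 13200 to 14200 CPM after knockdown, and the adipocyte ones to 259 to 297 and 120 to 135 CPM. TWIST1 stood at 6.9 ± 0.668 RPKM with scramble and 4.54 ± 0.411 after knockdown (SD, n = 3). The part of the markers and of TWIST1 in the result was not tested.

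In HMLE-TWIST1 cells at day 2 the directions were mixed. LAMB3 (0.32), LAMA3 (0.22) and ITGA6 (0.22) were called higher and ITGB4 (-0.45, from 80 reads to 52) lower, with limma adjusted p-values of 0.0467, 0.025, 0.0315 and 0.0116. Leaving out 1 library ended the call of ITGA6 for 4 of the 6 libraries and those of LAMA3 and LAMB3 for 3 each. Each was lost without scramble replicate 3 (limma adjusted p = 0.207, 0.157 and 0.144) and without knockdown replicate 2 (0.115, 0.12 and 0.22), ITGA6 and LAMA3 also without knockdown replicate 1, ITGA6 without scramble replicate 1 and LAMB3 without scramble replicate 2. With voom weights none of the 4 passed (limma adjusted p = 0.0681 to 0.41). TP63 held 6 reads with scramble and 5 after knockdown. The epithelial markers summed to 84.2 to 89.3 CPM with scramble and 155 to 180 CPM after knockdown, and the mesenchymal ones to 32800 to 34800 and 25500 to 26700 CPM. TWIST1 stood at 299.8 ± 22 RPKM with scramble and 215.6 ± 25.9 after knockdown (SD, n = 3). The part of either list and of TWIST1 in the result was not tested. Of the 8, 3 were higher and 1 lower, over 7.73% and 7.60% of all genes (9.15% and 5.91% with library totals). The difference between the lines in the knockdown effect, tested as an interaction, was 0.55 for ITGA6, 0.71 for LAMA3, 0.83 for LAMB3 and 0.28 for PLEC (limma adjusted p = 0.000848, 6.56e-05, 0.0011 and 0.0242), or 4 of 8 higher and none lower over 7.39% and 4.76% of all genes (5.43% and 5.69% with library totals). The PLEC interaction was lost (limma adjusted p = 0.0552 to 0.0727) without HMLE scramble replicate 2 or 3, HMLE knockdown replicate 1 or 2, or HMLE-TWIST1 scramble replicate 1 or 2.

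At day 4 of the knockdown LAMA3 changed in opposite directions in the lines. In HMLE it stood at 35.9, 38.3 and 38.8 RPKM with scramble and 80.4, 92.4 and 94.0 after knockdown, a rise of 1.24 (SE 0.089, limma adjusted p = 3.82e-08). In HMLE-TWIST1 it stood at 3.57, 3.59 and 3.59 RPKM with scramble and 1.82, 2.49 and 2.10 after knockdown and fell by 0.73 (SE 0.089, limma adjusted p = 7.74e-06). The groups did not overlap in either line, and the interaction was -1.97 (SE 0.126, limma adjusted p = 4.77e-08). With LAMB3 in HMLE at 126, 159 and 146 RPKM against 154.5, 170.5 and 169.6 (log2 0.21, limma adjusted p = 0.403), the ratio of LAMB3 to LAMA3 was 3.80 ± 0.318 with scramble and 1.86 ± 0.0596 after knockdown. In HMLE-TWIST1 that ratio was 0.0622 ± 0.0176 and 0.225 ± 0.0589.

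TP63, LAMB3 and ITGB4 were the other genes of the 8 called in HMLE-TWIST1 cells at day 4. TP63 stood at 0, 0 and 0.00998 RPKM with scramble and at 0.0425, 0.0183 and 0.0200 after knockdown, 1 read against 8 (ratio 7.9, 1.06 to 351, limma adjusted p = 0.000275). It passed the read filter only through the HMLE libraries of the same fit. At these counts the fitted change depends on the prior count, so the TP63 call is no firm evidence of a rise. LAMB3 stood at 0.283, 0.226 and 0.159 against 0.422, 0.4075 and 0.589 RPKM, 42 reads against 90 (2.12, 1.45 to 3.13), and rose by 1.01 (SE 0.166, limma adjusted p = 0.000336). ITGB4 stood at 0.644, 0.605 and 0.693 against 0.246, 0.363 and 0.309 RPKM and fell by 1.01 (SE 0.116, limma adjusted p = 2.1e-06). No groups of these 3 overlapped, and the LAMB3 call was lost with voom weights (limma adjusted p = 0.0525) and with all 51 libraries in 1 fit (0.0506). COL17A1, at 9 reads with scramble and 8 after knockdown, did not pass (-0.14, limma adjusted p = 0.723), and without knockdown replicate 1 it was called lower (-0.49, 0.0202).

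In HMLE cells at day 4 LAMA3 was the only one of the 8 called by the test reported. TP63 (0.37, limma adjusted p = 0.117), ITGB4 (0.21, 0.218) and LAMB3 did not pass in it, but passed with voom weights (3.96e-05, 0.0356 and 0.0262). TP63 stood at 59.8, 65.5 and 59.6 RPKM with scramble and 79.1, 82.65 and 76.6 after knockdown. The reported fit takes 1 spread per gene over both lines, so the few TP63 reads of HMLE-TWIST1 enter its test in HMLE. The part of this in the missing calls was not tested. DST differed by 0.10 (limma adjusted p = 0.836), and scramble replicate 2 stood at 34.3 RPKM against 71.5 and 70.9 in the other scramble libraries. Without that library DST fell by 0.27 (limma adjusted p = 0.012) and PLEC passed as well (0.0114). Counts were 1 higher and 0 lower in HMLE, over 13.1% and 13.3% of all genes. In HMLE-TWIST1 the counts were 2 (LAMB3, and TP63 at 1 read against 8) and 2, over 21.3% and 16.9%. For the interaction they were 1 (LAMB3, 0.80, limma adjusted p = 0.0275, lost without HMLE scramble replicate 2 or 3, HMLE knockdown replicate 1 or HMLE-TWIST1 scramble replicate 2, at 0.0566 to 0.0676) and 2 (ITGB4, -1.22, and LAMA3), over 12.9% and 10.2%. In HMLE-TWIST1 cells the epithelial markers summed to 69.4 to 74.1 CPM with scramble and 216 to 231 CPM after knockdown, and the mesenchymal ones to 20800 to 22500 and 11800 to 12000 CPM. The luminal ones summed to 71.6 to 77.8 and 108 to 115 CPM. In HMLE cells the epithelial markers summed to 24200 to 25500 CPM with scramble and 19500 to 22200 CPM after knockdown, the luminal ones to 259 to 278 and 304 to 322 CPM, and the adipocyte ones to 379 to 447 and 223 to 280 CPM. TWIST1 fell by 0.45 in HMLE-TWIST1 cells (limma adjusted p = 0.000546). The part of the markers and of TWIST1 in these results was not tested.

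**Figure D5:**
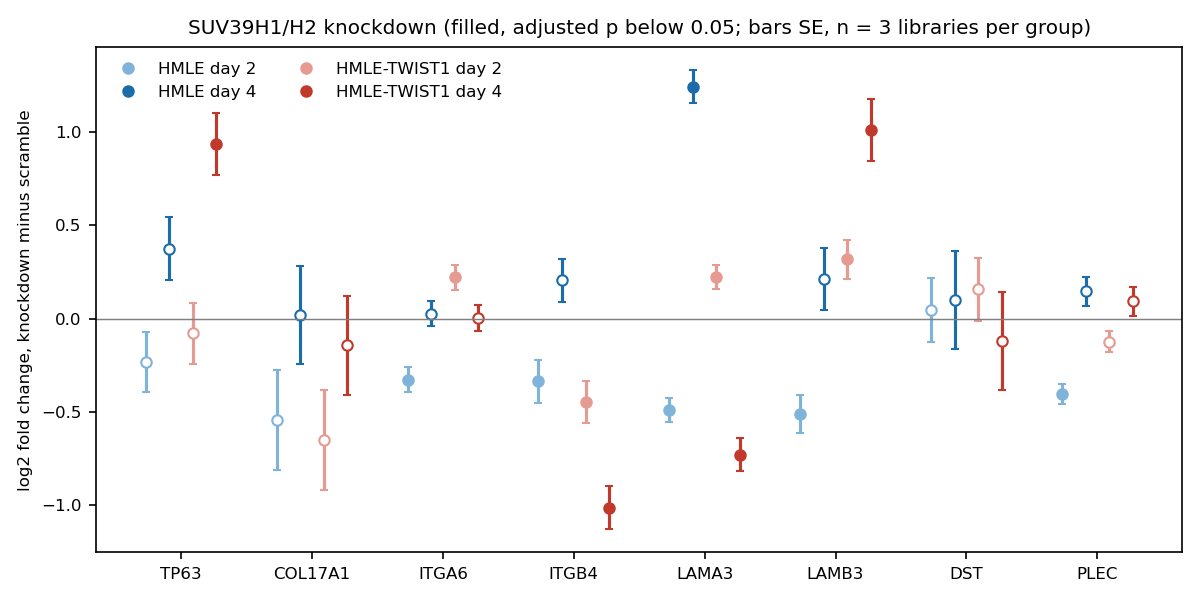
Log2 difference of knockdown minus scramble for each gene in both lines at day 2 and day 4, with error bars of 1 SE and filled points where the adjusted p was below 0.05. At day 4 LAMA3 lies at 1.24 in HMLE and at -0.73 in HMLE-TWIST1, and TP63, LAMB3 and ITGB4 lie apart from 0 in HMLE-TWIST1. The TP63 point there rests on 1 read against 8.

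Among the surrounding genes at day 4 in HMLE-TWIST1 cells, 5 of 20 p63 targets were higher and 4 lower (median 0.21), shares near the 21.3% and 16.9% of all genes, with KRT5 (2.51) and DSP (1.68) higher and CSTA (-1.80) and CLCA2 (-0.97) lower. Of the other laminin chains 6 of 9 were lower and 1 higher (median -0.43), led by LAMB1 (-1.40) and LAMA2 (-1.16). Of 15 basement membrane genes 4 were higher and 3 lower, with AGRN (agrin, 2.53) and COL15A1 (-3.48) at the ends of those named. Among receptors and partners ITGA2 (1.74) and ITGA3 (0.55), integrin chains that bind collagen and laminin, were higher and RPSA (-0.75), the laminin receptor that is also a ribosomal protein, lower. In HMLE at day 4, 5 of 9 laminin chains were higher and none lower (median 0.27), including LAMA1 (0.81) and LAMB1 (0.47), and 2 of 20 p63 targets were higher and 5 lower, beside 13.1% and 13.3% of all genes.

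Control libraries of day 4 were set against those of day 2. With scramble, day 4 adds 48 h of recovery after transfection, so time in culture and recovery cannot be told apart. With scramble in HMLE cells LAMB3 rose by 0.97, ITGB4 by 0.31 and ITGA6 by 0.28, and LAMA3 fell by 0.31. With scramble in HMLE-TWIST1 cells LAMB3 went the opposite way and fell by 1.08, from 0.533, 0.479 and 0.473 RPKM to 0.283, 0.226 and 0.159. There LAMA3 rose by 0.80, ITGB4 by 1.16 and ITGA6 by 0.52, and PLEC fell by 0.86. TP63 was called lower there with 1 read against 6, but the interval of its read ratio spans 1 (0.178, 0.00387 to 1.47), the groups overlapped, and the call was lost with voom weights (limma adjusted p = 0.0732) and with all 51 libraries in 1 fit (0.106). The difference between the lines passed for LAMB3 (-2.05), LAMA3 (1.11), ITGB4 (0.85) and PLEC (-0.89), each in limma with Benjamini-Hochberg adjustment. In HMLE the 8 gave 3 higher and 1 lower, over 21.6% and 20.7% (13.3% and 29.1% with library totals), and in HMLE-TWIST1 3 and 3, over 13.7% and 15.3% (17.2% and 11.5%). The difference between the lines gave 2 and 2, over 16.7% and 17.7% (26.2% and 9.73%). The ITGB4 call in HMLE (limma adjusted p = 0.0371) was lost when any of the 6 libraries except day 4 replicate 1 was left out (0.066 to 0.176), and without HMLE scramble day 4 replicate 2 DST was called higher (0.59, 0.00565).

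The days were also compared with DMSO. In HMLE DST was higher by 0.50, COL17A1 by 0.44 and ITGA6 by 0.27 at day 4, and LAMA3 fell by 0.39, or 3 higher and 1 lower over 19.3% and 16.0% of all genes (11.3% and 25.4% with library totals). In HMLE-TWIST1 PLEC alone of the 8 was called (-0.35, limma adjusted p = 0.0347), over 0.147% higher and 0.198% lower. The difference between the lines was -0.70 for COL17A1, -0.55 for ITGA6, -0.43 for DST and 0.82 for LAMA3, or 1 higher and 3 lower over 8.51% and 10.7% (16.1% and 5.5% with library totals). Several of these calls rest on single libraries. In HMLE, COL17A1 (limma adjusted p = 0.0441) lost its call without any library but day 2 replicate 1 (0.0557 to 0.171), LAMA3 (0.0307) without day 2 replicate 1 or 2 or day 4 replicate 2 or 3 (0.068 to 0.103), and ITGA6 without day 2 replicate 3 (0.0786) or day 4 replicate 2 (0.071). In HMLE-TWIST1 the PLEC call was lost without any library but day 4 replicate 2 (0.0575 to 0.182), and LAMA3 (0.43) was called higher without day 2 replicate 1 (0.0426). In the difference between the lines COL17A1 (limma adjusted p = 0.0433) was lost for 9 of 12 libraries, all but HMLE day 2 replicate 1 and HMLE-TWIST1 day 2 and day 4 replicate 2 (0.0518 to 0.112), and DST without HMLE-TWIST1 day 4 replicate 1 (0.0506). DMSO exposure also differed in length between the days, so exposure and day cannot be told apart.

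Genes with the pattern most like each of the 8 were taken by Pearson's r of mean log2 CPM. Over the 17 groups, which are dominated by the difference between the lines, TP63 was most like COL17A1 (0.996), MYO5B and IL18 (both 0.995), and ITGB4 most like BCAM (0.994), among 18313 genes. DST and PLEC had looser neighbours, ANKRD18CP (0.925) and ABCB8 (0.852). Over the 11 HMLE-TWIST1 groups alone, TP63 went with LAMB3 (r = 0.98), COL17A1 (0.96) and LAMA3 (0.79), against ITGB4 (-0.69) and with almost no relation to ITGA6 (0.06). Genes outside the 8 were more like TP63 there, led by HSPE1 and DNER (both 0.993) and SH3TC2 (0.992). These values describe 11 group means that share 5 chaetocin groups and the 3 parts of the table, and TP63 and COL17A1 rest on few reads in them.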

How the data were processed

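Total RNA was sequenced from rRNA-depleted stranded libraries of HMLE and HMLE-TWIST1 cells. STAR, HTSeq and hg19 (GRCh37) are named in the submitters' processing notes, with versions, counting options and strand setting not given in the sources used here. The authors deposited log2 RPKM values in 3 separately made parts, each with its own gene filter and offset. The steps of these values gave back whole reads in 100.0% of cases, none further than 3.1e-08 from an integer. A further deposited table has 81 columns that match no sample by name and was not used. The 100 to 500 nM libraries lie in another part than DMSO, so part and treatment cannot be told apart there.

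Library scaling used a trimmed mean (30% of log ratios and 5% of levels removed each side). Log2 CPM with a prior count of 2 was tested in limma 3.58.1 (R 4.3.3), with an intensity trend and robust moderation (statmod 1.5.0). Genes needed the equivalent of 10 reads in 3 libraries and 15 reads in all, over all libraries of a fit. Each fit takes 1 spread per gene over all its groups, those with few reads included. P-values were adjusted by Benjamini-Hochberg across every gene of a fit, with a threshold of 0.05. Whether groups overlap is a description of the libraries, and the share of all genes without overlap is not given here. The script was tested on simulated data.

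Alternatives were another prior count, library totals or median ratios as the scaling, no filter or 50 reads, the deposited log2 values, voom weights, plain moderation, a replicate block, all 51 libraries in 1 fit, and leaving out each library. By a rule of correlation over 0.1 in every same-numbered pair of deviations, replicate numbers paired only 500 with 100 nM (0.463, 0.25 and 0.182). The fit without the block is the one reported. The genes, lists and tests were chosen with earlier results of these data known. Named genes were the 8, TWIST1, SUV39H1 and SUV39H2, at most 4 genes per list, those of smallest adjusted p, and the 3 most alike in pattern, of which some are not reported here.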

Additional observations from a re-analysis of the deposited data

Results flagged for a closer look

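The results given here are those where the effect in HMLE-TWIST1 cells differed from that in HMLE cells by a test of the difference itself (limma interaction, Benjamini-Hochberg over all genes), given as HMLE-TWIST1 minus HMLE on the log2 scale. For knockdown against scramble at day 2, ITGA6 differed by 0.55, LAMA3 by 0.71, LAMB3 by 0.83 and PLEC by 0.28. For knockdown at day 4, ITGB4 differed by -1.22, LAMA3 by -1.97 and LAMB3 by 0.80. LAMA3, the laminin α3 chain, thus has a difference of opposite sign at day 2 and day 4, and whether the days differ in it was not tested.

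For day 4 against day 2 with scramble, ITGB4 differed by 0.85, LAMA3 by 1.11, LAMB3 by -2.05 and PLEC by -0.89. For day 4 against day 2 with DMSO, COL17A1 differed by -0.70, ITGA6 by -0.55, LAMA3 by 0.82 and DST by -0.43. LAMA3 is the only one of the 8 genes in all 4 of these comparisons. With 3 libraries a group, no search for single outlying libraries was made.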

How the results depend on the processing

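Of 1760 log2 values of the genes under the 10 alternatives other than leaving out a library, 1641 kept their direction and side of the threshold (or moved by less than the replicate spread), 87 were no longer past it, 21 came past it, 11 moved and 0 reversed. With 1 library left out the counts were 1105, 82, 16, 44 and 1 of 1248. The value that reversed is the DST difference of knockdown in HMLE cells at day 4, which ranged from -0.273 without scramble replicate 2 to 0.259 without scramble replicate 1. The number of the 8 genes called stayed within 1.5 times the reported one in the 4 comparisons of lines, the 4 of single doses with DMSO and the washout, under each alternative and with each library left out.

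For knockdown in HMLE at day 2 (reported 5) 2 were called with all 51 libraries in 1 fit. Knockdown in HMLE-TWIST1 at day 2 (reported 4) gave 1 on the deposited log2 values, 0 with voom weights, 1 with plain moderation and 0 with all 51 libraries. Knockdown in HMLE at day 4 (reported 1) gave 4 with voom weights, and the interaction at day 2 (reported 4) gave 0 with all 51 libraries. Day 4 against day 2 in HMLE scramble (reported 4) gave 2 with library totals and 1 with all 51 libraries. In HMLE DMSO (reported 4) the days gave 2 with plain moderation and 0 with all 51 libraries. In HMLE-TWIST1 DMSO (reported 1) they gave 0 with library totals, the deposited values, plain moderation or all 51 libraries, and 2 with the replicate block. The difference of lines between days with DMSO (reported 4) gave 2 with library totals, plain moderation or all 51 libraries. Leaving out 1 library gave 1 to 4 genes for 500 against 100 nM (reported 4), 1 to 5 for knockdown in HMLE-TWIST1 at day 2, 1 to 3 in HMLE at day 4, 1 to 3 for the days in HMLE DMSO, 0 to 1 in HMLE-TWIST1 DMSO and 2 to 4 for their difference. The cause was not tested.

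Counts over all genes moved by over 1.5 times with all 51 libraries in 1 fit for 500 against 100 nM (3242 to 5123), knockdown at day 2 in HMLE (5175 to 3328) and HMLE-TWIST1 (2743 to 1247), the interactions at day 2 (2173 to 740) and day 4 (4142 to 2410), and the days in HMLE-TWIST1 scramble (5437 to 3559). The 3242 fell to 1204 without 100 nM replicate 3, 918 without 500 nM replicate 2 and 1946 without 500 nM replicate 3. For the days in HMLE-TWIST1 DMSO the 61 became 1 on the deposited values, 110 with voom weights, 2 with plain moderation, 157 with the replicate block, and 3 (without day 4 replicate 3) to 182 (without day 4 replicate 2) with 1 library left out. With replicate number as a block, 6 gene calls changed. PLEC passed at 200 nM (limma adjusted p = 0.0421) and for 500 against 100 nM (0.0204), LAMA3 passed for the days in HMLE-TWIST1 DMSO (0.0387), and LAMB3 in the knockdown interaction at day 4 (0.0605) and COL17A1 for the days in HMLE DMSO (0.052) and in their difference (0.0515) did not. Only for 500 against 100 nM did same-numbered deviations correlate over 0.1 in every pair, and in the other comparisons the correlations were -0.111 to 0.23. By another measure, each library correlated best with its own number in the lines with DMSO at either day, the washout and the days in HMLE DMSO. That did not hold for 500 against 100 nM. Depth limits TP63 and COL17A1 in HMLE-TWIST1 controls, where 1 to 15 reads a group set the size of every fold.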
